A study of Culex quinquefasciatus with 4 samples.

Results

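A set of 122 genes of the southern house mosquito, Culex quinquefasciatus, stood higher in all 3 libraries of larvae sampled after 24 h than in larvae sampled at the start, with or without an insecticide. They were chosen from the 13345 genes of the deposited expression table, of which they are 0.914%. A gene belonged to the set when its log2(FPKM + 1) exceeded that of untreated larvae by 1 or more, which is a 2-fold ratio with 1 FPKM added to each value, in each of the 3 libraries of 24 h. It also had to reach 5 FPKM in all 3 of those libraries, to be above 0 in untreated larvae and to have an identifier number below 20000 or from 40000 on. FPKM counts sequenced fragments per kilobase of transcript and per fixed number of mapped fragments. The values that chose the genes are the values described below, so the rise over untreated larvae is a description and was not tested.

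All 4 groups were whole larvae of the fourth instar. One group was exposed to acetone, a common solvent for permethrin, for 24 h. Another spent 24 h in permethrin at the LC50, the concentration that kills 50% of larvae, and another spent 24 h in permethrin at the LC70, the concentration that kills 70%. The remaining group was untreated and collected at 0 h. Each group was 1 library from a pool of 200 larvae, reared on brewer's yeast under a 12:12 light and dark cycle. No value has a replicate error, and each difference is one between 2 pools. Untreated larvae differ from acetone larvae in time and in solvent, and these cannot be told apart. At either dose, a response to permethrin cannot be told apart from which larvae were alive or dying at collection.

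The fourth instar is the last larval stage before the pupa. During it the larva feeds, stores protein and lipid in the fat body, lays down new cuticle and then, under ecdysone and juvenile hormone, prepares the tissues of the adult, so many transcripts are known to change with age within the stage. Permethrin is a pyrethroid that holds voltage-gated sodium channels of insect nerves open. Cytochrome P450s, glutathione S-transferases and esterases are the enzyme families best known for pyrethroid metabolism in mosquitoes. Which of the 122 genes belong to such families is not known here, because the table gives identifiers without names and a reference table of 18458 genes held 0 of the 13345 identifiers. In whole larvae, more cells of one type and more RNA per cell cannot be told apart.

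The median level of the rising genes was 27.5 FPKM in acetone, 30.2 FPKM in LC50 larvae and 43.5 FPKM in LC70 larvae, against 8.27 FPKM in untreated larvae. For 7241 other genes, which met the same limits on level, untreated value and identifier but did not show the rise, it was 15.03, 18.8 and 19.5 FPKM at 24 h in the same order, against 15.9 FPKM in untreated larvae. The rule itself favours genes that are low in untreated larvae and high at 24 h. The untreated median of the rising genes lay at percentile 55.9 of all genes in that library, and the LC70 median at percentile 85.7 of all genes in the LC70 library. The genes spanned 5.05 to 2170 FPKM in acetone, 5.20 to 5174 FPKM in LC50 larvae and 5.32 to 4405 FPKM in LC70 larvae, against 0.753 to 1051 FPKM in untreated larvae. At 100 FPKM or more were 26 of them in acetone, 37 in LC50 larvae and 38 in LC70 larvae, against 10 in untreated larvae. The set held 1.64% of the summed FPKM in acetone, 2.58% in LC50 larvae and 3.13% in LC70 larvae, against 0.524% in untreated larvae. A few abundant transcripts made up much of this share, since the 5 highest genes of the set held 41.0% of its sum in acetone, 51.9% in LC50 larvae and 43.4% in LC70 larvae, against 45.9% in untreated larvae.

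CPIJ002799 and CPIJ001840 were the most abundant rising genes over the libraries of 24 h. CPIJ002799 stood at 2170 FPKM in acetone, 5174 FPKM in LC50 larvae and 4405 FPKM in LC70 larvae, against 1051 FPKM in untreated larvae. CPIJ001840 stood at 1146 FPKM in acetone, 2747 FPKM in LC50 larvae and 2551 FPKM in LC70 larvae, against 487 FPKM in untreated larvae. Both genes roughly followed one course in the deposited values, with acetone between untreated larvae and the permethrin libraries and the LC50 slightly above the LC70. For CPIJ001840 the log2 ratio of the LC70 over the LC50 was -0.11. It became 0.07 when all libraries were set to an equal sum without the 50 highest genes, so the order of the doses depends on scaling.

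The rise was smallest in acetone. Over untreated larvae the median log2(FPKM + 1) ratio of the 122 genes was 1.37 in acetone, 1.86 in LC50 larvae and 1.93 in LC70 larvae, where the median over all genes compared was -0.04, 0.24 and 0.26 in the same order of libraries. A gene counted as compared when either library of the pair held at least 1 FPKM of it. By the rule all 122 were at least 2-fold higher in each library, and among all genes compared 2.58% were so in acetone, 6.79% in LC50 larvae and 7.08% in LC70 larvae. In all 3 libraries at once, 1.39% of the 13345 genes passed that ratio. Ratios of 4-fold were reached by 11 of the 122 in acetone, 50 in LC50 larvae and 57 in LC70 larvae, and ratios of 8-fold by 1, 3 and 13 in the same order. Among the 7241 other genes without the rise, 4-fold was reached by 1, 37 and 29 and 8-fold by 0, 3 and 4. The rule chose the genes on these ratios, so nothing is read from the contrast. These 3 comparisons share the untreated library.

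CPIJ019875 and CPIJ007448 had the largest ratios over untreated larvae both in acetone and in LC70 larvae. CPIJ019875 stood at 37.9 FPKM in acetone, 26.3 FPKM in LC50 larvae and 125.0 FPKM in LC70 larvae, against 2.55 FPKM in untreated larvae, or log2 ratios of 3.46, 2.94 and 5.15. CPIJ007448 stood at 33.7 FPKM in acetone, 24.1 FPKM in LC50 larvae and 79.9 FPKM in LC70 larvae, against 4.11 FPKM in untreated larvae, or log2 ratios of 2.77, 2.30 and 3.99. In both, the LC70 library was the highest and the LC50 library the lowest of the libraries of 24 h.

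At the LC50 the largest ratios over untreated larvae belonged to CPIJ801536 and CPIJ009451. CPIJ801536 stood at 10.7 FPKM in acetone, 24.5 FPKM in LC50 larvae and 18.7 FPKM in LC70 larvae, against 0.753 FPKM in untreated larvae, the lowest untreated value of the set. Its log2 ratio in LC50 larvae was 3.86. With 0.1 FPKM added in place of 1 it was 4.85, and with 5 FPKM added it was 2.36. At 5 FPKM added CPIJ009451 was higher, at 2.65, so the rank of CPIJ801536 depends on the amount added. CPIJ009451 stood at 40.8 FPKM in acetone, 65.7 FPKM in LC50 larvae and 83.8 FPKM in LC70 larvae, against 6.28 FPKM in untreated larvae, and its log2 ratio in LC50 larvae was 3.19. Its levels ascended from acetone to the LC50 and the LC70, as they did in 42 of the 122 rising genes, or 34.4%, and in 42.5% of the 7241 other genes.

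The acetone value was most often the one nearest to the threshold. In 90 of the 122 genes the smallest of the 3 ratios over untreated larvae was the one in acetone. In 23 it was in LC50 larvae and in 9 in LC70 larvae. Acetone was thus lowest of the 3 libraries in 73.8% of the rising genes. Among the other genes it was lowest in 77.4%, so a low acetone value was not particular to the set. The gene nearest to the threshold from inside had 19.0 FPKM in acetone, 29.5 FPKM in LC50 larvae and 28.4 FPKM in LC70 larvae, against 9.01 FPKM in untreated larvae, with a log2 ratio of 1.00 in acetone. The gene nearest from outside had 38.4 FPKM in acetone, 34.8 FPKM in LC50 larvae and 30.5 FPKM in LC70 larvae, against 14.8 FPKM in untreated larvae, with a log2 ratio of 0.99 in LC70 larvae. Between a smallest ratio of 1 and 1.1 lay 24 of the rising genes, and between 0.9 and 1 lay 31 other genes. The floor of 5 FPKM left out another 50 genes that met the ratios. The lowest value of a rising gene at 24 h was 5.05 FPKM, in acetone, and the nearest gene short of the floor had 4.94 FPKM in LC70 larvae. With the identifier limit lifted the set would hold 125 genes, and with the limit on untreated values lifted it would stay at 122.

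A further 280 of the 7241 other genes (3.87%) were at least 2-fold higher than untreated larvae at both permethrin doses but not in acetone. Their median log2 ratio over untreated larvae in acetone was 0.51, and 38 of them were below untreated larvae there. Another 10 genes missed the set through the LC50 library alone, with a median log2 ratio of 0.77 there, and 5 through the LC70 library alone, with a median of 0.90. In the deposited values acetone was also lower over all genes compared. Their median log2 ratio over untreated larvae was -0.04 in acetone, 0.24 in LC50 larvae and 0.26 in LC70 larvae. These counts were not repeated after scaling, and nothing is read from their difference.

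**Figure D1:**
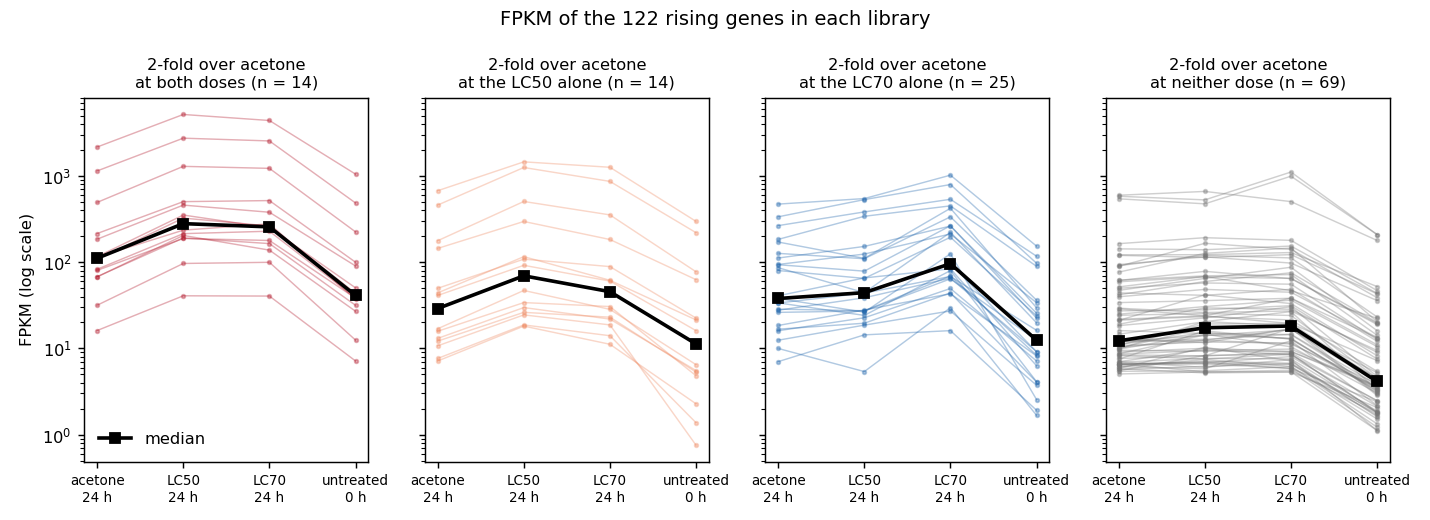
FPKM (log scale) of each of the 122 rising genes in the acetone, LC50, LC70 and untreated libraries, 1 thin line per gene and black squares for the median, split by whether the gene reached 2-fold over acetone at both doses (14), at the LC50 alone (14), at the LC70 alone (25) or at neither (69). Every line is lowest in untreated larvae, which the rule requires, and the panels differ in the step from acetone to the permethrin libraries.

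The permethrin libraries were next compared with acetone at equal time. The rule asks for a rise in each library of 24 h and does not order them, but it used their values, so these comparisons are given as descriptions beside all genes. They share the acetone library. At the LC50, 28 of the 122 genes were at least 2-fold higher than in acetone and 0 were 2-fold lower. Among 13030 genes compared, 4.76% were higher and 1.33% lower. The median log2 ratio of the rising genes was 0.29, close to the 0.27 of all genes. At the LC70, 39 of the 122 were at least 2-fold higher than in acetone and 0 lower, where 5.2% of 13009 genes were higher and 1.35% lower. Here the median log2 ratio was 0.70, against 0.30 for all genes. By the rule, a rising gene can be 2-fold lower than acetone only where acetone is itself 4-fold over untreated larvae. This was so in 11 of the 122, so the rule largely sets both counts of 0 lower and nothing is read from them. Both doses were at least 2-fold above acetone in 14 of the 122 genes, where 2.51% of 12790 genes were so.

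Part of these counts went with a shift of all genes. Scaling every library by the median of its gene-wise ratios to the libraries' geometric mean brought the all-gene medians over acetone to -0.01 in LC50 larvae and to -0.00154 in LC70 larvae. Of the same 122 genes, 11 were then 2-fold or more above acetone in LC50 larvae and 2 were as far below it, where 2.42% of all genes compared were above and 2.07% below. In LC70 larvae 9 were above and 0 below by that ratio, where 2.11% of all genes compared were above and 2.15% below. At both doses together 2 were above. No share of all genes was computed for that count after scaling, and it is not read as high or low. Setting all libraries instead to an equal sum without the 50 highest genes left 27 of 121 rising genes 2-fold above acetone in LC70 larvae. In that scaling 3.47% of all genes compared were so. Relative to all genes, the median of the rising genes over acetone was higher by 0.02 in LC50 larvae and 0.40 in LC70 larvae in the deposited values. After median-ratio scaling these differences were -0.02 and 0.37.

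The 2-fold ratio over acetone divided the set into 4 parts, in which 14 genes passed it at both doses, 14 at the LC50 alone, 25 at the LC70 alone and 69 at neither. In percent this was 11.5%, 11.5%, 20.5% and 56.6% of the rising genes. Of the 7241 other genes 2.55% passed at both doses, 1.70% at the LC50 alone, 2.35% at the LC70 alone and 93.4% at neither. The parts differed in level. Those above acetone at both doses had medians of 111 FPKM in acetone, 280 FPKM in LC50 larvae and 257 FPKM in LC70 larvae, against 41.2 FPKM in untreated larvae, and those at neither had 12.2, 17.4 and 18.2 FPKM, against 4.13 FPKM in untreated larvae.

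In the 14 genes above acetone at both doses, the rule and the division together set the permethrin libraries at 4-fold or more over untreated larvae. Their median log2 ratio over untreated larvae was 1.12 in acetone, 2.51 in LC50 larvae and 2.36 in LC70 larvae. They stood at 40.8 to 5174 FPKM in LC50 larvae and 40.5 to 4405 FPKM in LC70 larvae, against 16.1 to 2170 FPKM in acetone. The doses were close to each other, with log2 ratios of the LC70 over the LC50 between -0.56 and 0.24.

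CPIJ010703 had the largest ratio of the LC50 over acetone in the set, at 352 FPKM in LC50 larvae and 116 FPKM in acetone (log2 ratio 1.60), with 251 FPKM in LC70 larvae and 50.4 FPKM in untreated larvae. CPIJ009105 followed with 204 FPKM in LC50 larvae and 67.5 FPKM in acetone (log2 ratio 1.58), with 138 FPKM in LC70 larvae and 27.0 FPKM in untreated larvae. CPIJ005108 was nearly level between the doses, at 99.7 FPKM in LC70 larvae and 96.7 FPKM in LC50 larvae, against 31.7 FPKM in acetone, and its untreated value was 12.5 FPKM. Its log2 ratio of the LC70 over acetone, 1.62, was the second highest of the set after that of CPIJ019875 at 1.69. In all 3 genes both permethrin libraries were above acetone, and acetone was above untreated larvae.

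The 14 genes above acetone at the LC50 alone were lower in LC70 larvae than in LC50 larvae by the division itself, and their median log2 ratio of the LC70 over the LC50 was -0.47. They were all higher in LC70 larvae than in acetone, by log2 ratios of 0.34 to 0.99. CPIJ014436 had the largest excess of the LC50 in the set, at 61.7 FPKM in LC70 larvae against 116 FPKM in LC50 larvae (log2 ratio -0.90), with 44.0 FPKM in acetone and, in untreated larvae, 21.4 FPKM. CPIJ001839 followed at 28.4 FPKM in LC70 larvae against 47.0 FPKM in LC50 larvae (log2 ratio -0.71), with 16.9 FPKM in acetone and, in untreated larvae, 6.47 FPKM. No rising gene was 2-fold lower in LC70 larvae than in LC50 larvae, and 5 were lower by 1.5-fold or more.

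In the other direction the doses differed more. At the LC70, 15 of the 122 genes, or 12.3%, were at least 2-fold higher than in LC50 larvae, where 1.32% of 13140 genes were higher and 0.761% lower. Among the 7241 other genes 0.387% were higher. The median log2 ratio of the LC70 over the LC50 was 0.04 in the rising genes and 0.0036 in all genes, so the difference lay in a few genes rather than in the set as a whole. The count was 15 after median-ratio scaling as well and 18 of 121 after all libraries were set to an equal sum without the 50 highest genes. In the deposited values the LC50 library was below acetone in 11 of the 15 genes, and the LC70 library at least 2-fold above acetone in 13. After median-ratio scaling 9 of all 122 rising genes were 2-fold above acetone in LC70 larvae, so the 13 depends on the scaling. The medians of the 15 genes were 37.9 FPKM in acetone, 44.3 FPKM in LC50 larvae and 125.0 FPKM in LC70 larvae, against 12.5 FPKM in untreated larvae. Their median log2 ratio over untreated larvae was 1.80 in acetone, 1.57 in LC50 larvae and 3.18 in LC70 larvae. The other 107 rising genes had 1.31, 1.91 and 1.89 in the same order. Choosing genes on the LC70 over the LC50 favours low LC50 values and high LC70 values, so these medians are a description.

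CPIJ014232 had the largest ratio of the LC70 over the LC50, at 222 FPKM in LC70 larvae against 44.3 FPKM in LC50 larvae (log2 ratio 2.30), with 86.3 FPKM in acetone and, in untreated larvae, 19.8 FPKM. CPIJ010034 followed at 29.7 FPKM in LC70 larvae against 5.38 FPKM in LC50 larvae (log2 ratio 2.26), with 9.98 FPKM in acetone and, in untreated larvae, 1.67 FPKM. The same pair had the smallest ratios of the LC50 over acetone in the set, -0.95 for CPIJ014232 and -0.78 for CPIJ010034 on the log2 scale. CPIJ019875 and CPIJ007448, described above, shared this order, with the LC70 highest, then acetone, then the LC50, and untreated larvae lowest. An LC50 value below and an LC70 value above acetone was found in 20 of the 122 genes, or 16.4%, and in 5.11% of the other genes. The opposite order, above in LC50 larvae and below in LC70 larvae, was found in 7 rising genes, or 5.74%, and in 7.28% of the others. These signs are those of the deposited values, in which 25 of the 122 were below acetone in LC50 larvae and 12 in LC70 larvae. After median-ratio scaling 62 and 47 were below it. The orders were not recounted after scaling.

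**Figure D2:**
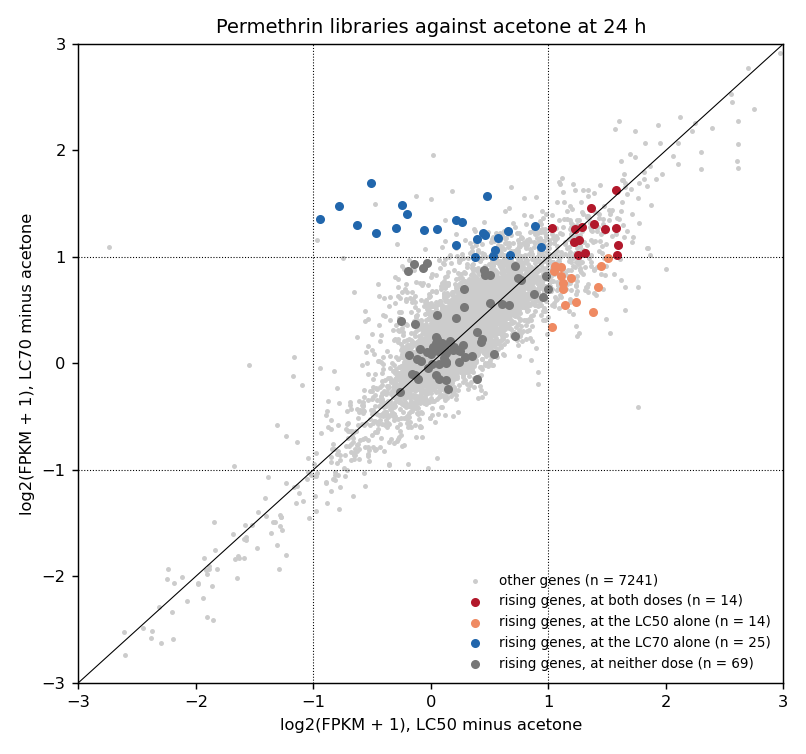
Difference in log2(FPKM + 1) from acetone in LC50 larvae (x axis) and in LC70 larvae (y axis), for the rising genes in 4 colours by where they reach 2-fold over acetone and for 7241 other genes in grey, 8 of which lie outside the axes. Dotted lines mark 2-fold, and the blue points at the upper left are rising genes that were below acetone in LC50 larvae and at least 2-fold above it in LC70 larvae.

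Of the 69 genes that were 2-fold above acetone at neither dose, 50 had a range of less than 1.5-fold over the libraries of 24 h, 17 a range from there to 2-fold and 2 a wider one. Their median log2 ratio over untreated larvae was 1.42 in acetone, 1.61 in LC50 larvae and 1.70 in LC70 larvae. Over acetone it was 0.13 in LC50 larvae and 0.17 in LC70 larvae, where the all-gene medians were 0.27 and 0.30 and the division leaves out high ratios. These 50 are 41.0% of the whole set, and 71.2% of the other genes ranged less than 1.5-fold. A range of less than 2-fold was found in 67 rising genes, or 54.9%, and in 91.8% of the others. Acetone held the lowest value of the 3 libraries in 73.8% of the rising genes and in 77.4% of the others. It held the highest value in 5 rising genes, or 4.10%, and in 10.2% of the others.

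CPIJ007105 and CPIJ005802 had the smallest ratios of the LC70 over acetone. CPIJ007105 stood at 5.35 FPKM in LC70 larvae against 6.63 FPKM in acetone (log2 ratio -0.27), with 5.35 FPKM in LC50 larvae and 1.12 FPKM in untreated larvae. CPIJ005802 stood at 505 FPKM in LC70 larvae against 598 FPKM in acetone (log2 ratio -0.24), with 662 FPKM in LC50 larvae and 179 FPKM in untreated larvae. As the rule requires, both were over 2-fold above untreated larvae in LC70 larvae, with log2 ratios of 1.58 for CPIJ007105 and 1.49 for CPIJ005802.

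The ratios over acetone were also set out by untreated level. Among the 49 rising genes under 5 FPKM before exposure, 4 stood 2-fold or more above acetone in LC50 larvae and 6 in LC70 larvae. Of the 33 genes from 5 to 20 FPKM the counts were 6 and 11, of the 30 genes from 20 to 100 FPKM they were 13 and 17, and of the 10 genes from 100 FPKM they were 5 and 5. In percent the rising genes gave 8.16%, 18.2%, 43.3% and 50% in LC50 larvae over these levels, where the other genes gave 6.40%, 3.38%, 5.15% and 5.23%. In LC70 larvae the rising genes gave 12.2%, 33.3%, 56.7% and 50% by level, where the other genes gave 2.69%, 3.84%, 6.41% and 6.68%. These differences between levels were not tested. The median log2 ratio of the LC50 over acetone was 0.12, 0.28, 0.80 and 0.82 over these levels. For the LC70 over acetone it was 0.23, 0.63, 1.07 and 0.97. The ratio of acetone over untreated larvae had medians of 1.42, 1.31, 1.29 and 1.21. The rule chose the genes on that ratio, and the untreated level is its denominator, so no trend is read from these medians. The rule itself bears on low genes. The added 1 FPKM lowers their ratios, and any gene under 2 FPKM in untreated larvae that reached 5 FPKM in every library of 24 h belonged to the set.

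**Figure D3:**
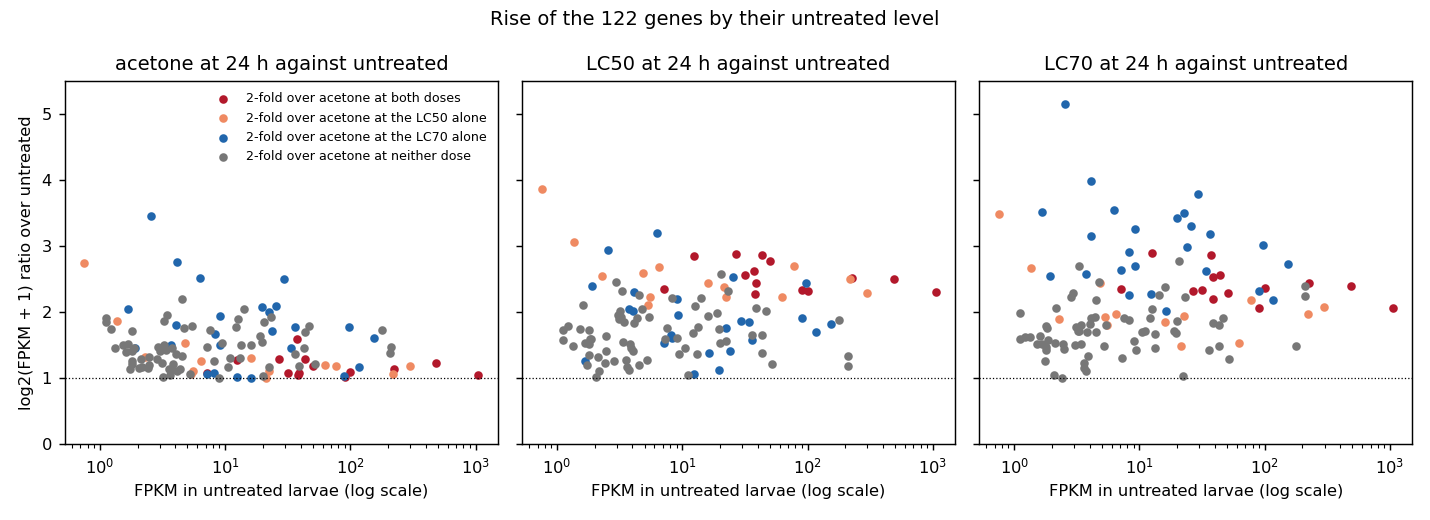
Difference in log2(FPKM + 1) from untreated larvae in acetone, in LC50 larvae and in LC70 larvae (y axes) against FPKM in untreated larvae (log x axis), 1 point per rising gene, coloured by where it reaches 2-fold over acetone. The dotted line is the threshold of the rule. Of the 40 genes from 20 FPKM in untreated larvae, 30 have the smallest of their 3 ratios in acetone. Acetone was the lowest library of 24 h in 73.8% of all rising genes and in 77.4% of the other genes, so this is not particular to these levels.

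Identifier numbers were the one other property of the genes that the table gave. Of the 122 genes, 24 (19.7%) had a number within 3 of another rising gene, and these formed 8 pairs and 2 runs of 4. Whether close numbers mean close positions in the genome, or related copies of one gene, was not tested, and reads shared between related copies could not be checked. No share expected by chance was computed for these counts, and they are not read as high or low. Of the 10 pairs and runs, 5 lay within one of the 4 parts defined by acetone. Within 3 numbers of a pair or run the table held 45 genes outside the set, of which 11 (24.4%), beside 5 of the 10, were at least 2-fold above untreated larvae at both doses, where 3.64% of all genes outside the set were so. Numbers from 800000 belonged to 10 rising genes, or 8.20%, and to 6.89% of the table.

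In the run from number 9098 to 9101 all 4 genes of the table were rising genes, and they followed 2 courses. Number 9098 stood at 544 FPKM in acetone, 476 FPKM in LC50 larvae and 995 FPKM in LC70 larvae, against 209 FPKM in untreated larvae. Number 9099 had nearly the same values, 582 FPKM in acetone, 528 FPKM in LC50 larvae and 1112 FPKM in LC70 larvae, against 209 FPKM in untreated larvae. This pair was highest in LC70 larvae and lower in LC50 larvae than in acetone. Number 9100 stood at 12.1 FPKM in acetone, 26.2 FPKM in LC50 larvae and 23.0 FPKM in LC70 larvae, against 5.31 FPKM in untreated larvae. Number 9101 stood at 80.3 FPKM in acetone, 188 FPKM in LC50 larvae and 179 FPKM in LC70 larvae, against 38.3 FPKM in untreated larvae. This second pair was slightly highest in LC50 larvae as deposited, with log2 ratios of the LC70 over the LC50 of -0.18 and -0.08.

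Rising genes at most 6 numbers apart formed 3 stretches with 4 or more of them, a rule set after their values were seen, and each stretch is given with 3 numbers added on either side. From 2791 to 2802 the table held 9 genes, of which 4 were rising genes and 4 more were 2-fold or more above untreated larvae at both doses, with log2 ratios in acetone of 0.40 to 0.88. From 1827 to 1843 it held 16 genes, of which 4 were rising genes, and 5 more reached the ratio at both doses, with log2 ratios in acetone of 0.26 to 0.98. Number 1836 was the most abundant of these 5, at 607 FPKM in acetone, 1136 FPKM in LC50 larvae and 1429 FPKM in LC70 larvae, against 319 FPKM in untreated larvae. It had the order of libraries seen in number 1833, a rising gene, with acetone lowest and the LC70 highest at 24 h. From 9095 to 9108 it held 10 genes, of which 5 were rising genes and 1 more reached the ratio at both doses, with a log2 ratio in acetone of 0.92. The most abundant rising genes, CPIJ002799 and CPIJ001840, lie in these stretches.

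**Figure D4:**
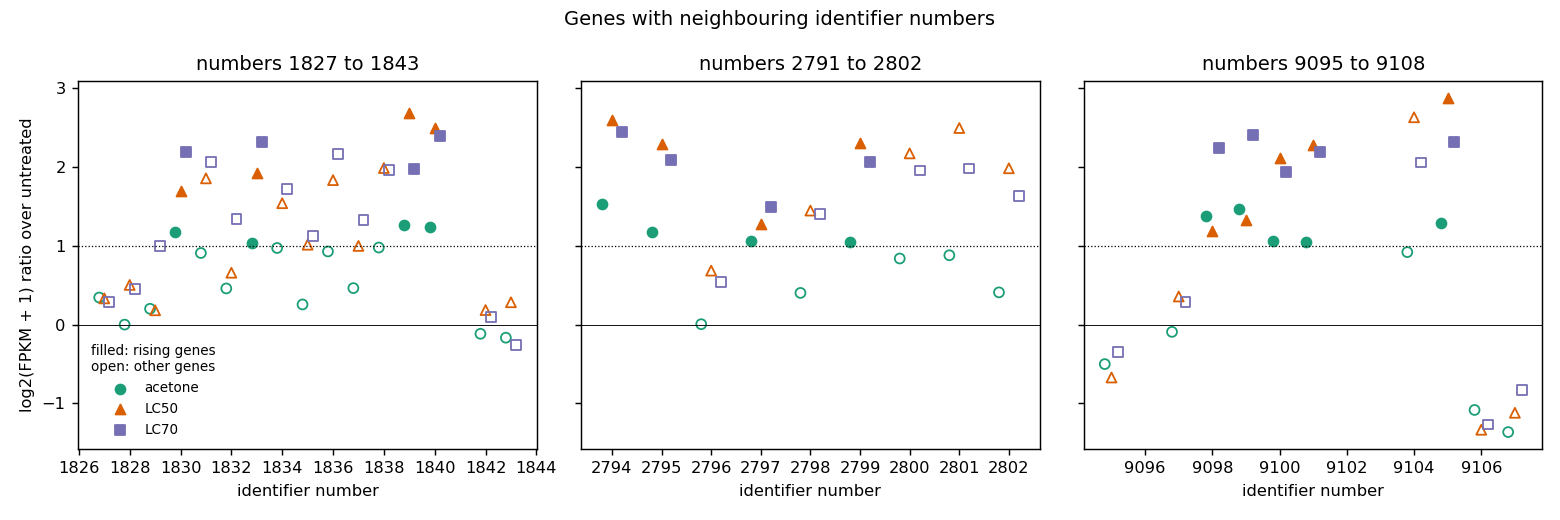
Difference in log2(FPKM + 1) from untreated larvae (y axis) by identifier number (x axis) for acetone, LC50 and LC70, with filled symbols for rising genes and open symbols for other genes. The dotted line is the threshold of the rule. In the left and middle panels several open symbols lie above it for both doses and below it in acetone. Their log2 ratios in acetone were 0.26 to 0.98 in the left panel and 0.40 to 0.88 in the middle panel.

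Values shared exactly between genes, which can arise when a table lists one estimate for several genes, were counted in each library. In acetone 2 of the rising genes (1.64%) shared a value with some other gene, in LC50 larvae 3 (2.46%) and in LC70 larvae 1 (0.820%), against 8 (6.56%) in untreated larvae. Of all 13345 genes 5.52% did so in acetone, 4.96% in LC50 larvae and 4.68% in LC70 larvae, against 5.45% in untreated larvae. No rising gene shared its values with another gene in all 4 libraries at once, as 34 genes of the table did.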

How the data were processed

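RNA of 4 pools of 200 whole larvae was made into mRNA libraries and read on an Illumina HiSeq instrument from both ends, 51 nucleotides each, per the labels' protocols. The submitters' processing notes name CASAVA 1.8, Trimmomatic, TopHat, Cufflinks and Cuffdiff. The header of the deposited table gives no unit. Its values were read as FPKM because Cufflinks reports that unit and because they are decimals with a different sum in each library. Not given in the sources used here are the genome build, the annotation, the settings and the read totals, so depth is unknown and no counting interval is given.

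Columns were matched to samples by their names. Ratios are differences of log2(FPKM + 1) on the values as deposited, and they understate the change of low genes. All-gene comparisons took genes with at least 1 FPKM in either library. With 1 library per group, no test, p-value or error was computed. The rule was run on simulated data in which chosen genes, all from 5 FPKM in untreated larvae, were set 4-fold higher. That run does not show how the rule treats lower genes or ratios near 2-fold. The members and lists were chosen with earlier results of these data known. Named genes are the 2 members with the largest ratio in each comparison, the 2 with the smallest in comparisons among libraries of 24 h, and the 2 with the highest mean at 24 h. Stretches of identifier numbers were chosen after their values were seen. Product groups were not counted and no sequence is printed, because no identifier could be named. Alternatives were pseudocounts of 0.1 and 5, a 4-fold threshold, floors of 1 and 10 FPKM, 2 scalings (by the median ratio, and to one total without the 50 highest genes), both limits on identifier and zero lifted in turn, and each library of 24 h left out of the rule. Both scalings with the same 122 genes kept, 121 of them in the second, were added after seeing the data. Analyses used Python 3.11.15, numpy 2.4.6, pandas 2.3.3 and matplotlib 3.10.9.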

Additional observations from a re-analysis of the deposited data

Results flagged for a closer look

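Among the 15 named genes, 5 moved in opposite directions from acetone at the doses in the deposited values. The difference between the doses was not tested because each dose is 1 library. CPIJ014232 had a log2 ratio of the LC70 over the LC50 of 2.30, with 1.35 over acetone at the LC70 and -0.95 at the LC50. For CPIJ010034 that ratio was 2.26, with 1.48 over acetone at the LC70 and -0.78 at the LC50. CPIJ019875 had 2.21 between the doses, with 1.69 over acetone at the LC70 and -0.51 at the LC50. CPIJ007448 had 1.69 between the doses, with 1.22 over acetone at the LC70 and -0.47 at the LC50. In CPIJ005802 the order was reversed, at -0.39 between the doses, with -0.24 over acetone at the LC70 and 0.15 at the LC50. Its ratio of the LC50 over acetone was -0.18 after median-ratio scaling and also without the 50 highest genes. Both doses were then below acetone, so its opposite signs depend on the scaling. The rest of the 5 kept opposite signs under both scalings. All 5 were named for extreme ratios that involve these libraries. In the whole set 27 of the 122 genes, or 22.1%, had opposite signs over acetone at the doses, as did 12.4% of the 7241 other genes. These signs were counted in the deposited values, where the all-gene medians over acetone were 0.27 and 0.30. They were not recounted after scaling.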

How the results depend on the processing

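Counts of 122 genes in the set, of 28 and 39 of them 2-fold above acetone at the LC50 and LC70, of 14 above at both and of 15 with the LC70 2-fold above the LC50 were recomputed with the genes chosen anew. A pseudocount of 5 gave 59 in the set, 15 and 24 above acetone and 9 at both doses. A 4-fold threshold was applied to the ratios between libraries of 24 h as well. It gave 7 in the set, 0 and 0 at 4-fold above acetone, 0 at both doses, and 1 with the LC70 4-fold above the LC50. These counts do not give how many of the 7 were 2-fold above acetone. CPIJ019875, in that set, had a log2 ratio of the LC70 over acetone of 1.69. Median-ratio scaling gave 114 genes (105 of them among the 122), with 12 and 8 above acetone and 2 at both doses. Rescaling without the 50 highest genes gave 197 in the set, 117 of them among the 122. Leaving acetone out of the rule gave 473. With the same 122 genes kept, an alternative added after seeing the data, median-ratio scaling gave 11 and 9 above acetone. It gave 2 at both doses and 2 lower in LC50 larvae than in acetone. Rescaling without the 50 highest genes, which left 121 of the 122, gave 11 above acetone in LC50 larvae and 27 in LC70 larvae. It gave 5 at both doses and 2 lower in LC50 larvae than in acetone. The median of these genes for the LC50 over acetone, 0.29 in the deposited values of all 122, was -0.03 under both scalings. The counts of 0 genes 2-fold lower became 4 for the LC50 over acetone and 1 for the LC70 over the LC50 with a floor of 1 FPKM, 1 and 1 after rescaling without the 50 highest genes, and 1 for the LC70 over the LC50 after median-ratio scaling. Stricter settings admit fewer genes by construction, and the cause was not tested otherwise. The medians over acetone and between doses moved by less than 1.5-fold under each pseudocount, threshold, floor and scaling. Of 354 ratios of named genes under 2 pseudocounts and 2 scalings, 335 moved by less than 1.5-fold, and 0 of those past 2-fold in the deposited values changed sign. Smaller ratios could change sign, as that of the LC50 over acetone did in CPIJ005802 under both scalings. No paired analysis was possible because there is 1 library in every group, and no replicate could be left out. Low values rest on an unknown number of fragments.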
